A study of Mus musculus with 10 samples.

Results

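The comparison set the spindle-chromosome complex (SCC) of the mouse egg against the cytoplast, the egg that is left once the SCC has been taken out. Its members were all 45101 probe sets of a 1-colour expression array, short oligonucleotide groups that each read 1 transcript or a few. Of these, 23737 exceeded the median of the array on 3 arrays or more and were tested. Their brightest single-gene probe sets stood for 12713 genes. 3 SCC arrays (replicates 1 to 3) were compared with 4 cytoplast arrays (replicates 1 to 4). 3 arrays of intact oocytes (replicates 2 to 4) entered the fit to estimate the spread, so that 10 arrays of the series were used in all. The design asked whether stored maternal transcripts are concentrated at the spindle.

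All groups came from in vivo matured eggs of female B6D2F1 mice, a hybrid strain, with no transgene, and all were arrested in metaphase of the second meiotic division (MII). The mice were given equine chorionic gonadotropin and, 48 h later, 5 IU of human chorionic gonadotropin. Cumulus cells were stripped 16 h after that with hyaluronidase at 120 IU/ml. SCCs were cut out by microsurgery, and the labels do not say how much surrounding cytoplasm went with them, how many eggs made up a sample or whether replicates came from separate mice. Up to 50 ng of RNA per sample was amplified in 2 rounds and 10 µg of labelled RNA went on each array. A higher value therefore means a larger share of the RNA in that sample, and neither the amount of RNA per SCC nor the number of SCCs pooled can be told apart from it.

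The MII egg transcribes almost nothing and lives on messages made during growth. Its spindle lies under the cortex, surrounded by membranes of the endoplasmic reticulum (ER), mitochondria and vesicles, and it holds the chromosomes in place until fertilisation. Messages for secreted and membrane proteins are translated on the ER: the signal peptide leads the new chain through the Sec61 channel, signal peptidase cuts it off, oligosaccharyl transferase attaches a sugar chain, and disulphide isomerases and chaperones fold the product before it moves on to the Golgi.

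The arrays carried oocyte transcripts in both groups. Of 20 oocyte markers, 16 lay above background on every SCC array and 16 on every cytoplast array, background being the 95th percentile of genes of other tissues on that array (91.2 to 124). The summed marker intensity was 55803 to 73491 in the SCC and 43149 to 71785 in the cytoplast. Of 27 cumulus and granulosa cell markers, 24 were above background on none of the 7 arrays, and their summed level was 942 to 1163 in the SCC and 990.0 to 1104 in the cytoplast. Of 53 markers of other tissues, 49 were above background on none, a count largely fixed in advance because these same genes set that level. One sign of RNA or amplification quality lay apart in the groups: the log2 gap between the 3′ and 5′ control probe sets of Actb was 3.27 to 3.65 in the SCC and 3.66 to 5.29 in the cytoplast, without overlap (exact two-sided permutation test, p = 0.0571, the smallest that 3 against 4 arrays allow, for 1 of 4 array measures). The same gap for Gapdh overlapped (2.32 to 3.23 and 2.57 to 3.92, exact permutation p = 0.457). Since the Actb gap lay apart in the groups, a covariate fit cannot fully separate it from the group difference. With the Actb gap as a covariate, the median log2 difference of the 1020 genes described below was 0.77 instead of 0.78, these genes being chosen by the same arrays, and that of all genes 0.05 instead of 0.02. The median standard error grew from 0.16 to 0.24, and 5 genes passed the adjusted threshold, while 900 of the 1020, and 1551 of all 12713 genes, were higher at an unadjusted limma p under 0.05.

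In the values as deposited, nearly all transcripts that passed the test were higher in the SCC. In all, 1599 of 23737 probe sets (6.74%) were higher and 65 (0.274%) lower at an adjusted p under 0.05 in limma, a linear model fitted across all probe sets. For genes, 1020 of 12713 (8.02%) were higher and 35 (0.275%) lower. The arrays of the groups did not overlap for 1970 genes in the higher direction (15.5%) and 745 in the lower (5.86%). Part of this was a shift of bright probe sets as a class: among the 3944 with a mean log2 intensity above 8, the median log2 difference was 0.28 as deposited, 0.02 after cyclic loess and 0.00 after quantile scaling. Both scalings centre the arrays on each other along the intensity range. They reduced the genes called higher to 290 and 242 and raised those called lower to 87 and 112, so that the share of higher among all calls went from 96.7% to 76.9% and 68.4%. A gene called in 1 direction as deposited and after each scaling is said below to have passed under all 3 scalings. That held for 411 probe sets higher (1.73%) and 40 lower (0.169%), or 234 genes higher (1.84%) and 21 lower (0.165%). Single arrays carried much of the count: as deposited, 168 genes were higher with SCC replicate 2 left out and 153 with SCC replicate 3 left out. Leaving out cytoplast replicate 1 gave 378 and cytoplast replicate 2 gave 437. Lower genes then numbered 0, 1, 5 and 6. They were 23 and 55 if cytoplast replicate 3 or 4 was dropped and 106 if MII oocyte replicate 3 was. The count of higher genes rose without SCC replicate 1 (1279) and without MII oocyte replicate 3 (1296). It was 889 to 1024 without any of the remaining arrays in turn.

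**Figure D1:**
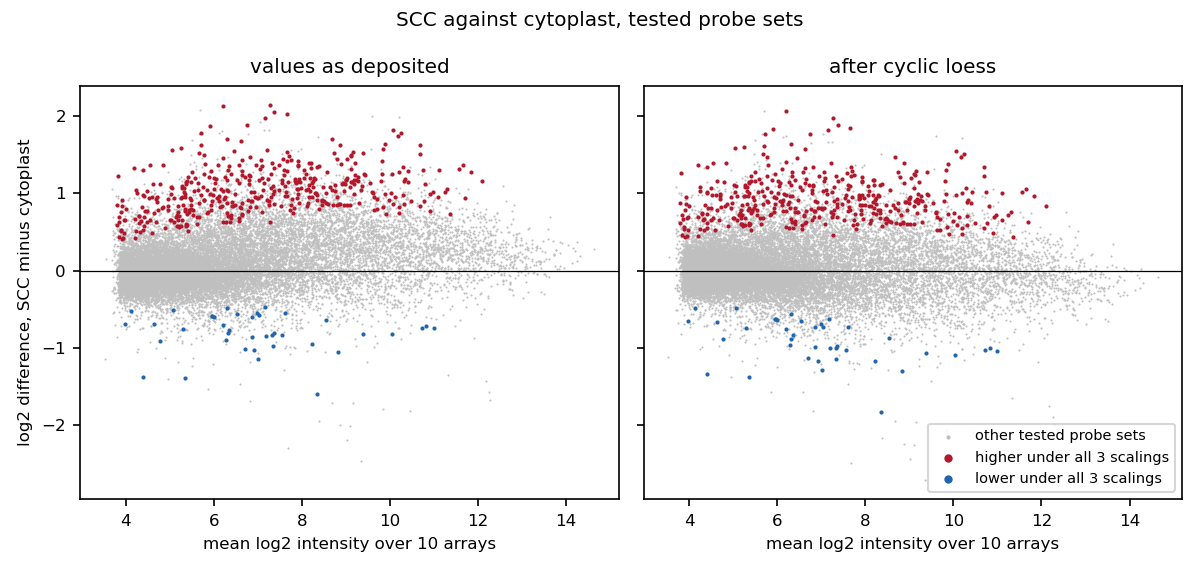
Each point is 1 of 23737 tested probe sets, with its mean log2 intensity over 10 arrays on the x axis and the log2 difference (SCC minus cytoplast) on the y axis, as deposited on the left and after cyclic loess on the right. Red points (411) were higher and blue points (40) lower under all 3 scalings; the bright end of the grey cloud lies above 0 on the left and about 0 on the right.

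The 12 largest rises under the naming rule were of mixed kinds. Atad2, a chromatin-bound ATPase with a bromodomain, had intensities of 359, 463 and 449 in the SCC (424 ± 56.7 SD, n = 3) and 92.3, 109, 121 and 86.6 in the cytoplast (102 ± 15.7 SD, n = 4). Each ± after a mean is the SD over arrays. No cytoplast array came near the SCC arrays, and only 2 of the 4 were above background. The difference was at least 3.87-fold (log2 2.06 ± 0.19 SE, adjusted p = 0.00128). A fold given as "at least" is a lower bound, with arrays of the dimmer group that were below background set to that level, while its log2 difference uses the measured values. Slc35b3, which carries the sulphate donor of sulphated glycans into the Golgi, had 381, 477 and 676 in the SCC (512 ± 150.3 SD, n = 3) and 110.5, 106, 154 and 121 in the cytoplast (123 ± 21.5 SD, n = 4), a rise of 4.09-fold (log2 2.03 ± 0.27 SE, adjusted p = 0.00376). C1galt1c1, the chaperone of the enzyme that extends O-linked glycans, had 266, 374 and 387 in the SCC (342 ± 66.7 SD, n = 3) and 80.2, 96.3, 115 and 60.5 in the cytoplast (88.1 ± 23.3 SD, n = 4), at least 3.23-fold higher (log2 1.98 ± 0.30 SE, adjusted p = 0.00584), with 1 cytoplast array above background. Sft2d1, a membrane protein of vesicle transport, had 2069, 2772 and 3186 in the SCC (2676 ± 565 SD, n = 3) and 668, 775, 859 and 784 in the cytoplast (771 ± 78.4 SD, n = 4), 3.43-fold higher (log2 1.78 ± 0.20 SE, adjusted p = 0.00234). In each of these genes the lowest SCC array was more than the highest cytoplast array, and the calls held under all 3 scalings with 10 arrays and, as deposited, whichever array was left out. With an array left out, the call under all 3 scalings was kept in 9 of 10 cases for Atad2, 7 for Slc35b3, 5 for C1galt1c1 and 6 for Sft2d1.

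Atrx, a chromatin remodeller that deposits histone H3.3 at heterochromatin, had 2173, 3303 and 2383 in the SCC (2619 ± 601 SD, n = 3) and 701, 778, 1100.0 and 593 in the cytoplast (793 ± 218 SD, n = 4). Its log2 difference was 1.74 ± 0.26 SE, adjusted p = 0.00557, and all 7 of its kept probe sets had a positive sign, 3 of them past the threshold. Lbr, the lamin B receptor of the inner nuclear membrane, had 2656, 3558 and 3984 in the SCC (3399 ± 678 SD, n = 3) and 1188, 709.6, 936 and 1788 in the cytoplast (1156 ± 465 SD, n = 4) (log2 1.62 ± 0.32 SE, adjusted p = 0.0148). The cytoplast arrays of Lbr spread widely, replicate 4 being the highest, and none reached the lowest SCC array. Timm10, a chaperone for proteins entering mitochondria, was above background on all SCC arrays and on no cytoplast array and so was at least 2-fold higher (log2 1.67 ± 0.28 SE, adjusted p = 0.00789). Naa20, the catalytic subunit of an N-terminal acetyltransferase, was at least 1.64-fold higher (log2 1.70 ± 0.35 SE, adjusted p = 0.0163). Tm2d1 was at least 3.44-fold higher (log2 2.15 ± 0.40 SE, adjusted p = 0.0121), with 1 cytoplast array above background. Rcn2, a calcium-binding protein of the ER lumen, was 2.89-fold higher (log2 1.53 ± 0.22 SE, adjusted p = 0.00527). Etnk1, an ethanolamine kinase of phospholipid synthesis, was 3.09-fold higher (log2 1.63 ± 0.28 SE, adjusted p = 0.00886), and Leprot, an endosomal membrane protein, 2.97-fold higher (log2 1.57 ± 0.30 SE, adjusted p = 0.0129). Of these, Lbr, Tm2d1, Etnk1 and Leprot were no longer past the threshold without SCC replicate 2 or without SCC replicate 3, and Naa20 also without cytoplast replicate 1 or 2.

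Genes of the ER were higher in the SCC more often than tested genes at large. Bright genes were too: of 2833 with a mean log2 above 8, 581 were higher as deposited and 97 under all 3 scalings. The shares of this and later lists are set against all tested genes and were not matched for brightness. Of 88 tested members of the list for translocation, folding and ER stress, 25 (28.4%, against 8.02% of all genes) were higher and none lower, where an unadjusted limma p under 0.05 gave 39 higher and 0 lower. Under all 3 scalings 12 were higher (13.6%, against 1.84%). The median log2 difference of the list was 0.31 as deposited, 0.20 after cyclic loess and 0.16 after quantile scaling, against 0.02, -0.01 and -0.03 over all genes. The arrays of the groups did not overlap for 35 of the 88 in the higher direction, against 15.5% of all genes, and for 0 in the lower, against 5.86%. The count of 25 was 9 without SCC replicate 2 and 8 without SCC replicate 3. Leaving out either cytoplast replicate 1 or 2 gave 17. It was 15 after cyclic loess and 13 after quantile scaling. With the Actb gap as a covariate it was 0.

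At the entry to the ER, Spcs2, a subunit of signal peptidase, had 514, 623 and 597 in the SCC (578 ± 57 SD, n = 3) and 221, 218, 208 and 268 in the cytoplast (229 ± 26.8 SD, n = 4). All SCC arrays lay above all cytoplast arrays, and the intact oocytes (278, 308 and 283) lay just above the cytoplast. The rise was 2.53-fold (log2 1.34 ± 0.12 SE, adjusted p = 0.00128). The catalytic subunit Sec11a rose as deposited (log2 1.01 ± 0.19 SE, adjusted p = 0.0117), with 2446, 2901 and 2487 in the SCC (2611 ± 252 SD, n = 3) and 1215, 1222, 1519 and 1228 in the cytoplast (1296 ± 149 SD, n = 4), but not after cyclic loess (adjusted p = 0.129 in limma). Its paralogue Sec11c read a log2 difference of 1.11 ± 0.32 SE, adjusted p = 0.0591. Spcs1, another subunit, read a log2 difference of -0.17 ± 0.14 SE, adjusted p = 0.561 and overlapping arrays, and Sec61b, a subunit of the translocation channel, one of 0.31 ± 0.14 SE, adjusted p = 0.244. So the subunits of signal peptidase differed in their calls. Ssr3, a subunit of the translocon-associated complex, was 1.65-fold higher (log2 0.72 ± 0.15 SE, adjusted p = 0.0165) as deposited and had a limma adjusted p of 0.0624 after cyclic loess.

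Of 10 tested subunits of oligosaccharyl transferase, picked from the list after their values were seen, 3 were higher as deposited, 1 of them under all 3 scalings. The catalytic subunits Stt3a and Stt3b and the subunits Rpn2, Ddost, Dad1, Magt1 and Krtcap2 were not called. Rpn1, which belongs to the transferase in all its forms, had 1035, 1344 and 1609 in the SCC (1329 ± 287 SD, n = 3) and 456, 439, 501 and 425 in the cytoplast (455 ± 33 SD, n = 4). The groups did not overlap, and the intact oocytes (418, 742 and 639) lay between them or beside the cytoplast. The rise was 2.88-fold (log2 1.52 ± 0.20 SE, adjusted p = 0.00373) and held under all 3 scalings; 5 of 6 kept Rpn1 probe sets had the same sign. Tusc3, an oxidoreductase subunit, was 2.09-fold higher (log2 1.06 ± 0.15 SE, adjusted p = 0.00521) as deposited but missed the threshold after cyclic loess (adjusted p = 0.0608 in limma), and Ostc was at least 1.73-fold higher (log2 0.80 ± 0.14 SE, adjusted p = 0.00924), lost without SCC replicate 3 and after quantile scaling (0.0503).

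Among the folding enzymes, Pdia6, a disulphide isomerase, had 804, 1021 and 909 in the SCC (911 ± 109 SD, n = 3) and 320.0, 349.7, 365 and 363 in the cytoplast (349 ± 20.6 SD, n = 4). Its intact oocytes read 286, 409.5 and 424, close to the cytoplast. The rise was 2.6-fold (log2 1.38 ± 0.15 SE, adjusted p = 0.00234). P4hb, the classical protein disulphide isomerase, had 1669, 2116 and 2848 in the SCC (2211 ± 595 SD, n = 3) and 1002, 721, 869 and 1385 in the cytoplast (994 ± 284 SD, n = 4) (2.23-fold higher, log2 1.16 ± 0.23 SE, adjusted p = 0.0139), and Pdia5 was 1.82-fold higher (log2 0.87 ± 0.17 SE, adjusted p = 0.0128). Dnajc3, an ER co-chaperone that also restrains the stress kinase PERK, had 1545, 2090.1 and 1693 in the SCC (1776 ± 282 SD, n = 3) and 669.7, 758, 875 and 684 in the cytoplast (747 ± 93.9 SD, n = 4). Dnajc3 was 2.37-fold higher (log2 1.25 ± 0.14 SE, adjusted p = 0.00234), and Dnajc10, a reductase that works with the ER chaperone BiP, 2.21-fold higher (log2 1.14 ± 0.22 SE, adjusted p = 0.0137). Pdia6, P4hb, Pdia5, Dnajc3 and Dnajc10 passed under all 3 scalings. As deposited, Pdia6 and Dnajc3 passed whichever array was left out, and P4hb, Pdia5 and Dnajc10 were lost without SCC replicate 2 or SCC replicate 3. Dnajb11, another co-chaperone, passed under all 3 scalings below background in both groups (82.2, 81.4 and 101 against 49.2, 48.2, 42.4 and 56.5), and no fold is given for it.

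The best known ER chaperones did not pass the test by their brightest probe sets. Canx, calnexin, had 1719, 1759.7 and 1512 in the SCC (1663 ± 133 SD, n = 3) and 1712, 1385, 1562 and 1604 in the cytoplast (1566 ± 136 SD, n = 4) (log2 0.09 ± 0.15 SE, adjusted p = 0.815), and its difference changed sign after cyclic loess (-0.20) and quantile scaling (-0.21). Calr, calreticulin, had 327, 324 and 352 in the SCC (334 ± 15.1 SD, n = 3) and 304, 224, 278 and 248 in the cytoplast (264 ± 35 SD, n = 4) (log2 0.35 ± 0.18 SE, adjusted p = 0.326). Hsp90b1, the ER form of Hsp90, had 311, 295 and 502 in the SCC (369 ± 115 SD, n = 3) and 455, 461, 537 and 235 in the cytoplast (422 ± 129.8 SD, n = 4) (log2 -0.17 ± 0.36 SE, adjusted p = 0.857). These 3 are abundant partners of the enzymes above, and their differences missed the threshold. For Hspa5, BiP itself, the probe sets disagreed. The brightest had 169, 190.0 and 171 in the SCC (177 ± 11.6 SD, n = 3) and 165, 155, 162 and 183 in the cytoplast (166 ± 11.8 SD, n = 4) (log2 0.09 ± 0.11 SE, adjusted p = 0.721), with differences of -0.08 and -0.13 after cyclic loess and quantile scaling. A second had 86, 119 and 187 in the SCC and 29.2, 27.5, 42.3 and 22.3 in the cytoplast, with a log2 difference of 2.07 ± 0.47 (SE, limma adjusted p = 0.0251) that was lost after both scalings (0.0553 and 0.0603). Only 1 SCC array of that probe set was above background.

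**Figure D2:**
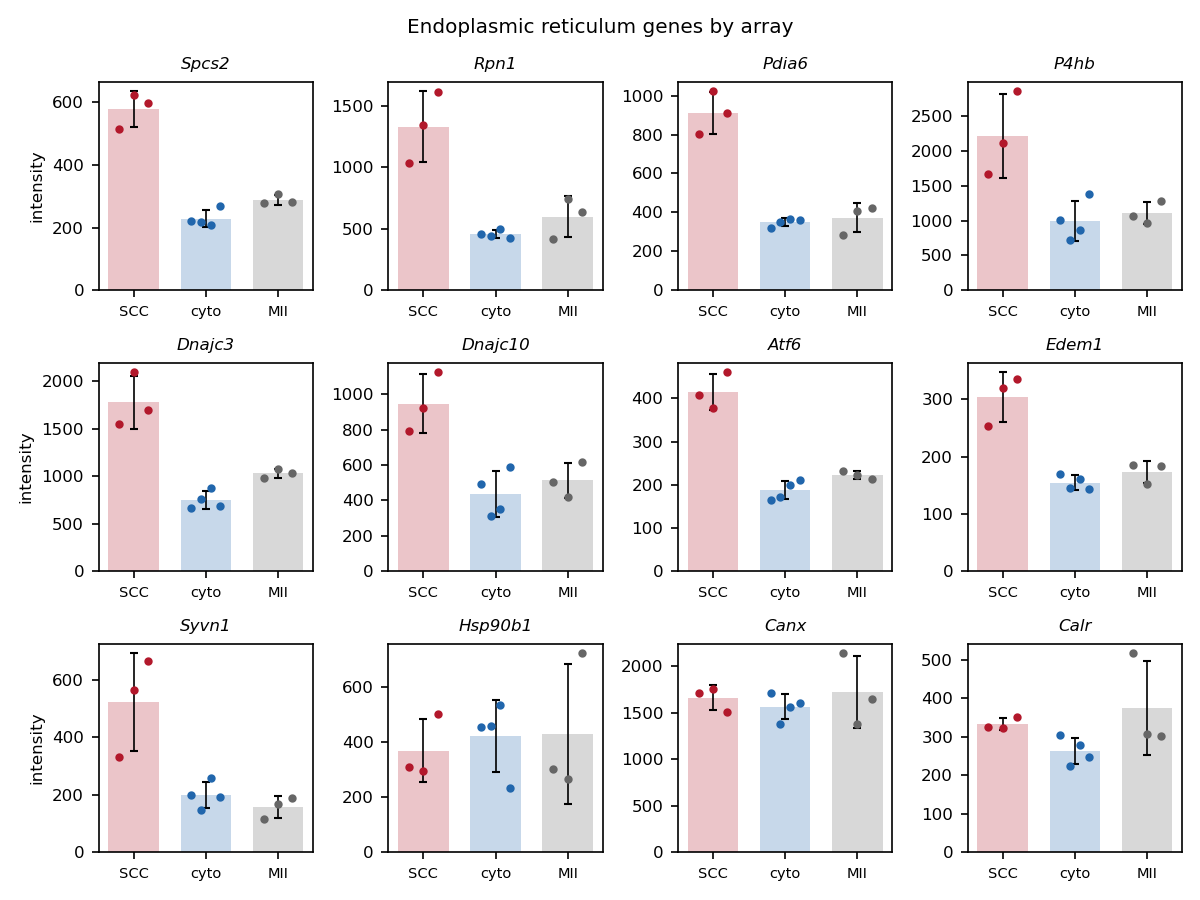
Intensity on a linear scale for 12 ER genes; bars are group means, error bars 1 SD, points single arrays (3 SCC, 4 cytoplast, 3 intact MII oocyte). The SCC points lie above all cytoplast points in the first 9 panels, and the groups overlap for Hsp90b1 and Canx; Calr is at 324 to 352 against 224 to 304.

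Of 4 tested sensors of ER stress 3 were higher as deposited, all but Atf6b, and 1 under all 3 scalings. Of 14 tested genes of ER degradation 3 were higher and 2 under all 3 scalings. Both groups were picked from the list after their values were seen. Atf6, a membrane-bound transcription factor cut loose under ER stress, had 407, 377 and 459.6 in the SCC (415 ± 42 SD, n = 3) and 166, 173, 200.5 and 210.3 in the cytoplast (187 ± 21.4 SD, n = 4). The SCC arrays were all well above the others, intact oocytes included (232, 223 and 214), and the rise was 2.22-fold (log2 1.15 ± 0.12 SE, adjusted p = 0.00234). Ern1, the kinase and nuclease that splices Xbp1, was very bright with 14817, 17634 and 18006 in the SCC (16819 ± 1744 SD, n = 3) and 11009, 9092, 9562 and 12236 in the cytoplast (10474 ± 1429.7 SD, n = 4), 1.61-fold higher (log2 0.69 ± 0.15 SE, adjusted p = 0.0181). It missed the threshold after cyclic loess (adjusted p = 0.0633 in limma). Eif2ak3, which encodes PERK, was at least 1.76-fold higher (log2 1.10 ± 0.21 SE, adjusted p = 0.0128) and missed it after quantile scaling (0.0536). Edem1, a lectin that sends misfolded glycoproteins to destruction, had 254, 320.0 and 336 in the SCC (303 ± 43.4 SD, n = 3) and 169.8, 145, 161 and 143 in the cytoplast (155 ± 12.7 SD, n = 4) and rose 1.95-fold (log2 0.96 ± 0.13 SE, adjusted p = 0.00453). Syvn1, the ubiquitin ligase of that pathway, had 333, 565 and 665 in the SCC (521 ± 170.3 SD, n = 3) and 201, 147, 258 and 192 in the cytoplast (199 ± 45.4 SD, n = 4), 2.56-fold higher (log2 1.36 ± 0.26 SE, adjusted p = 0.0124). Marchf6, another ER ubiquitin ligase, had 4432, 5968 and 6694 in the SCC (5698 ± 1155 SD, n = 3) and 2217, 1949, 2271 and 2619 in the cytoplast (2264 ± 276 SD, n = 4), 2.49-fold higher (log2 1.32 ± 0.21 SE, adjusted p = 0.00637). Edem3 was 2.14-fold higher (log2 1.10 ± 0.21 SE, adjusted p = 0.0134) as deposited and missed the threshold after cyclic loess (0.0551). Atf6, Edem1, Syvn1 and Marchf6 passed under all 3 scalings, and of these Syvn1 was lost without SCC replicate 2 or SCC replicate 3, as were Eif2ak3, Edem3 and Ern1, the last also without cytoplast replicate 1 or 2.

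Some ER genes carry the ER stress response element in their promoters, a CCAAT box and a CCACG part 9 bases apart that Atf6 binds together with the CCAAT factor. The motif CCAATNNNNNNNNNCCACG was searched on both strands of RefSeq promoter windows (GRCm38.p6, 250 bases before to 50 after the start), of which 10146 tested genes had one. It was present in 19 of them (0.187%) and in 9 of the 71 ER genes with a window (12.7%). It was in 3 of 21 ER genes called higher (14.3%) and 6 of 50 not called (12%). Short stretches around the motif are given from the windows of 3 genes called higher and of 2 that were not (by their brightest probe sets). They run 5′ to 3′ along the gene, with the motif in capitals, to show that the same element stands before both kinds.
Pdia6 (chr12:17266471-17266529, plus strand): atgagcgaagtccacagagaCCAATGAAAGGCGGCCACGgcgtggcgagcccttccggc
Dnajc3 (chr14:118937807-118937865, plus strand): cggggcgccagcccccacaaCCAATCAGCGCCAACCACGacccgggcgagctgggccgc
Syvn1 (chr19:6046512-6046570, plus strand): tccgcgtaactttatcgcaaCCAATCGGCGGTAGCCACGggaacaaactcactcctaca
Hspa5 (chr2:34772005-34772063, plus strand): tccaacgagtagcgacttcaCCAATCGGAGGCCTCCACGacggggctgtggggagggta
Canx (chr11:50325780-50325838, minus strand): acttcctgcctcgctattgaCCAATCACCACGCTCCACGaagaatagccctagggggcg
The Pdia6, Dnajc3, Syvn1, Hspa5 and Canx matches all lie on the gene's own strand, and they begin at positions -145 to -44 from the start. The other ER genes with the motif, none of them called, differ in this. Calr, Derl3 and Ero1b have it on the opposite strand, and Hsp90b1 has a match on each strand. A match is a description of these letters and shows neither binding nor a cause.

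Genes of glycan synthesis were also called higher more often than tested genes at large. Of 104 tested members of the glycosylation and nucleotide sugar list, 23 were higher (22.1%) and 1 lower, and 7 were higher under all 3 scalings (6.73%). The list's median log2 difference was 0.17, 0.09 and 0.07 in the 3 scalings. Besides Slc35b3 and C1galt1c1 above, Slc35a1, which brings CMP-sialic acid into the Golgi, had 895, 1075 and 1149 in the SCC (1039.6 ± 131 SD, n = 3) and 405, 456, 483 and 444 in the cytoplast (447 ± 32.3 SD, n = 4). The groups did not overlap, and the intact oocytes (483, 629 and 602) lay between them. The rise was 2.32-fold (log2 1.21 ± 0.13 SE, adjusted p = 0.00234). B3gnt2, which builds poly-N-acetyllactosamine chains, was 2.51-fold higher (log2 1.33 ± 0.17 SE, adjusted p = 0.00373), and Galnt11, which starts O-linked glycans, 1.82-fold higher (log2 0.87 ± 0.17 SE, adjusted p = 0.0148). Piga, of the first step of GPI anchor synthesis, was 1.92-fold higher (log2 0.94 ± 0.17 SE, adjusted p = 0.012). Hs2st1, a heparan sulphate sulphotransferase, was 1.67-fold higher (log2 0.74 ± 0.14 SE, adjusted p = 0.0128). After cyclic loess both missed the threshold (limma adjusted p = 0.0692 and 0.115). The count of 23 became 5 if SCC replicate 2 was dropped, 4 if SCC replicate 3 was and 11 if cytoplast replicate 1 or 2 was. It was 7 after cyclic loess and after quantile scaling. Galnt11, Piga and Hs2st1 were among the calls lost without either SCC replicate.

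The vacuolar proton pump, which acidifies endosomes and lysosomes, had 6 of 17 tested members higher (35.3%) and 2 under all 3 scalings (11.8%). Its median log2 difference was 0.35, 0.11 and 0.06. Atp6ap2, an accessory subunit that doubles as the prorenin receptor, had 3449.8, 4307 and 4013 in the SCC (3923 ± 436 SD, n = 3) and 1954, 1530.1, 1916 and 2387 in the cytoplast (1947 ± 350.3 SD, n = 4) and rose 2.03-fold (log2 1.02 ± 0.16 SE, adjusted p = 0.00591). All 3 of its probe sets passed under all 3 scalings, the others with log2 differences of 1.12 and 2.13, so this rise did not hang on 1 probe set. Atp6ap1 (1.85-fold higher, log2 0.89 ± 0.19 SE, adjusted p = 0.0175) and Atp6v1h, a subunit of the catalytic sector (2.35-fold higher, log2 1.23 ± 0.27 SE, adjusted p = 0.0208), rose as deposited and missed the threshold after cyclic loess (0.0846 and 0.0987). Without SCC replicate 2 or SCC replicate 3, 1 pump gene passed, Atp6ap1 and Atp6v1h being lost, and without cytoplast replicate 1 or 2 there were 2 and 3. Of the lysosomal membrane glycoproteins, Lamp2 was 2-fold higher (log2 1.0 ± 0.19 SE, adjusted p = 0.012) and passed under all 3 scalings. Lamp1 was 1.63-fold higher (log2 0.70 ± 0.18 SE, adjusted p = 0.0357) as deposited. The first was lost without SCC replicate 2 or 3 and the second also without cytoplast replicate 1, 2 or 3. Over the 107 tested genes of endosomes, lysosomes and autophagy, 14 were higher (13.1%) and 1 lower, with medians of 0.09, -0.01 and -0.01, near those of all genes. Rab11a, the GTPase of recycling endosomes, was 2.29-fold higher (log2 1.19 ± 0.18 SE, adjusted p = 0.00576) and held as deposited whichever array was left out, while of 46 Rab genes 4 were higher (8.7%) and 1 lower.

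Some genes of cell surface proteins were also higher. Cdh1, Adam10 and Fat1 were picked after their values were seen. No list of cell surface genes was tested, so no share is given. Cdh1, E-cadherin, the adhesion molecule that later compacts the embryo, had 2663, 3028 and 3262 in the SCC (2985 ± 302 SD, n = 3) and 1231, 1051, 1297 and 1279 in the cytoplast (1214 ± 113 SD, n = 4). The SCC arrays stood clear of the cytoplast arrays, and the intact oocytes (1371, 1534 and 1890.2) were slightly above the cytoplast. The rise was 2.46-fold (log2 1.30 ± 0.14 SE, adjusted p = 0.00234). Adam10, a membrane protease that sheds cadherins and Notch ligands, had 1310.4, 1654 and 2102 in the SCC (1689 ± 397 SD, n = 3) and 575, 536, 669 and 712 in the cytoplast (623 ± 81.3 SD, n = 4) and rose 2.68-fold (log2 1.42 ± 0.17 SE, adjusted p = 0.00283), although 2 of its 4 kept probe sets had the opposite sign. Fat1, a giant cadherin, was 2.41-fold higher (log2 1.27 ± 0.19 SE, adjusted p = 0.00576). Acvr2a, an activin receptor, had 209.9, 141 and 177 in the SCC (176 ± 34.6 SD, n = 3) and 82.4, 88.7, 77.1 and 71.1 in the cytoplast (79.8 ± 7.47 SD, n = 4), with no cytoplast array above background, and was at least 1.7-fold higher (log2 1.13 ± 0.15 SE, adjusted p = 0.00423). Among other receptors of this family that were called, Acvr1 was at least 2.64-fold higher (log2 1.45 ± 0.26 SE, adjusted p = 0.0111). Receptors of the family without a call were not counted. Bmpr1a was 2.42-fold higher (log2 1.28 ± 0.25 SE, adjusted p = 0.013) and Bmpr2 2.26-fold higher (log2 1.18 ± 0.24 SE, adjusted p = 0.0164). Acvr2a, Acvr1 and Bmpr1a passed under all 3 scalings and Bmpr2 only as deposited. Acvr1, Bmpr1a and Bmpr2 were lost without SCC replicate 2 or SCC replicate 3, and Bmpr2 also without cytoplast replicate 1. Among growth factors of this family that the oocyte secretes, Gdf9 had 8221, 9921 and 9629.9 in the SCC (9257 ± 909 SD, n = 3) and 6908, 5613, 5857 and 8748 in the cytoplast (6781 ± 1427 SD, n = 4) (log2 0.47 ± 0.17 SE, adjusted p = 0.145) and Bmp15 a log2 difference of 0.62 ± 0.34 SE, adjusted p = 0.348, both with overlapping groups.

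**Figure D3:**
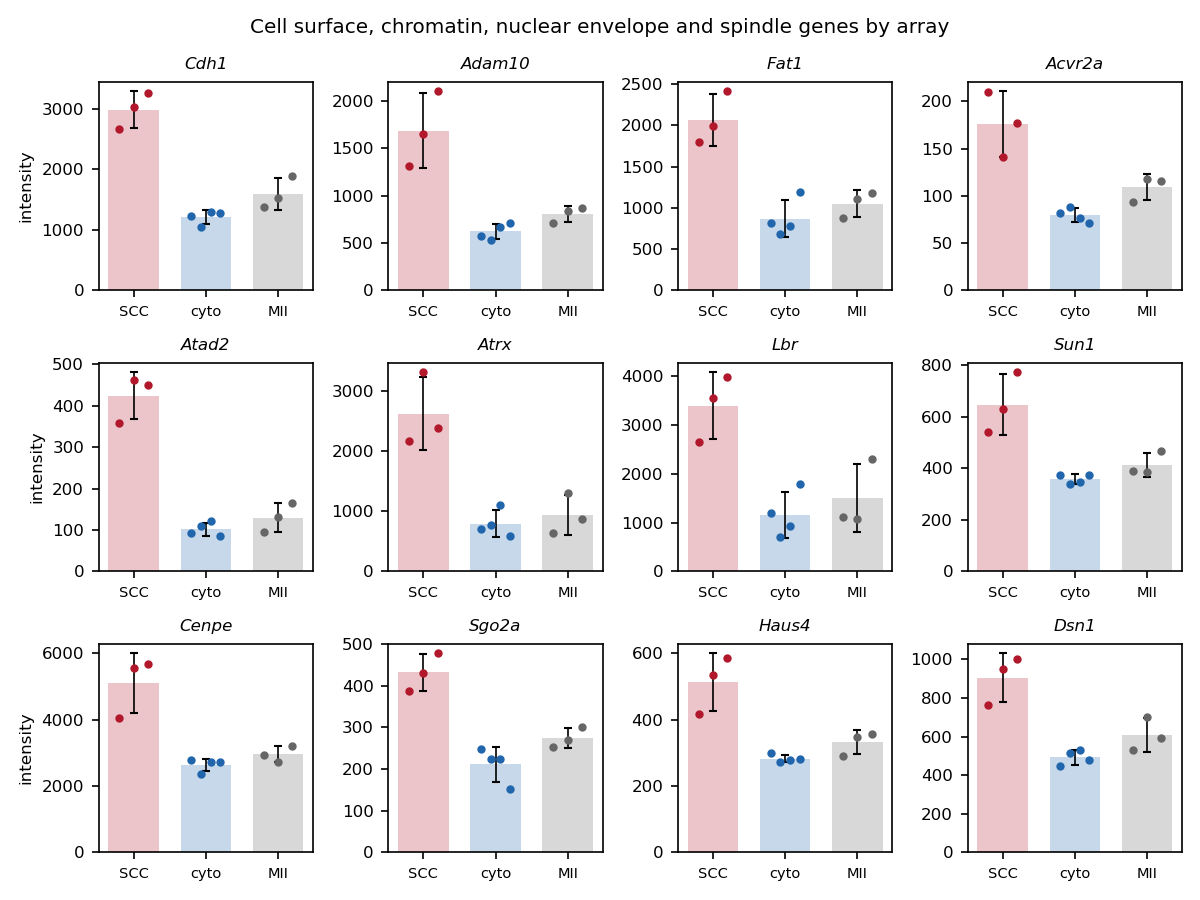
Intensity on a linear scale for 12 genes of the cell surface, chromatin, nuclear envelope and spindle; bars are group means, error bars 1 SD, points single arrays (3 SCC, 4 cytoplast, 3 intact MII oocyte). In every panel the lowest SCC point lies above the highest cytoplast point, as for Cdh1 with 2663 against 1297.

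Other membrane protein families were nearer to the background. Of 232 tested solute carriers 21 were higher (9.05%), and of 162 genes named Tmem 17 were (10.5%), with 6 in each family under all 3 scalings (2.59% and 3.7%). Slc6a20a, a carrier of imino acids, was 2.25-fold higher (log2 1.17 ± 0.18 SE, adjusted p = 0.00588) and Slc15a2, a carrier of small peptides, 1.94-fold higher (log2 0.96 ± 0.15 SE, adjusted p = 0.00608). Tmem33, an ER membrane protein, had 474, 490.0 and 602 in the SCC (522 ± 69.5 SD, n = 3) and 177, 181, 194 and 244 in the cytoplast (199 ± 30.8 SD, n = 4) and was 2.63-fold higher (log2 1.39 ± 0.14 SE, adjusted p = 0.00216), and its 3 probe sets had a positive sign, 2 of them called. Slc6a20a, Slc15a2 and Tmem33 passed as deposited whichever array was left out. Vesicle coats and SNAREs had 13 of 115 higher (11.3%) but 1 under all 3 scalings (0.87%), with medians of 0.14, 0.01 and -0.02.

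Genes of spindle proteins were tested as lists, chosen by the function of the protein and not by where the transcript lies. Of 62 tested genes of spindle assembly and motors 8 were higher (12.9%) and 1 under all 3 scalings (1.61%), and the median log2 difference went from 0.14 to 0.01 and to -0.01. The kinetochore list had 11 of 42 higher (26.2%) and 1 under all 3 scalings (2.38%), with medians of 0.24, 0.10 and 0.07. The centrosome list had 9 of 43 (20.9%) and 2 (4.65%), with medians of 0.24, 0.13 and 0.08. The list of cohesin, condensin and topoisomerases had 7 of 36 (19.4%) and 1 (2.78%), with medians of 0.33, 0.10 and 0.11. Of 15 tubulin genes none passed the limma threshold (2 were higher at an unadjusted p under 0.05), and their medians were -0.05, -0.07 and -0.10. So these lists had larger shares of calls than all tested genes as deposited, apart from the tubulins, and few calls after scaling. Bright genes had more calls too, with 581 of 2833 higher as deposited. The shares here and below were not matched for brightness. Without SCC replicate 2 or SCC replicate 3 the kinetochore, centrosome and cohesin counts were 2 each and the spindle assembly count 1. Without cytoplast replicate 1 or 2 the kinetochore count was 5, the centrosome and cohesin counts 4 and the spindle assembly count 4 or 3.

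Cenpe, the kinetochore motor that brings chromosomes to the metaphase plate, had 4049.7, 5556 and 5671 in the SCC (5092 ± 905 SD, n = 3) and 2771, 2370.0, 2717 and 2712 in the cytoplast (2642 ± 184 SD, n = 4). The cytoplast arrays lay within a narrow range and the SCC arrays all above it, a rise of 1.91-fold (log2 0.93 ± 0.14 SE, adjusted p = 0.00554). Sgo2a, the shugoshin that protects centromeric cohesion in meiosis, had 386, 431 and 477 in the SCC (431 ± 45.1 SD, n = 3) and 248, 223, 224 and 151 in the cytoplast (211 ± 41.9 SD, n = 4) and was 2.07-fold higher (log2 1.05 ± 0.17 SE, adjusted p = 0.0064). Haus4, a subunit of the augmin complex that branches spindle microtubules, had 418, 534 and 587 in the SCC (513 ± 86.2 SD, n = 3) and 299, 273, 278 and 280.0 in the cytoplast (282 ± 11.6 SD, n = 4) (1.8-fold higher, log2 0.85 ± 0.13 SE, adjusted p = 0.00642). Cep290, a centrosome and cilium protein, was at least 1.14-fold higher by its bound (log2 1.78 ± 0.18 SE, adjusted p = 0.00216), since 2 SCC arrays and no cytoplast array were above background. These 4 passed as deposited whichever array was left out. Dsn1, of the Mis12 complex of the kinetochore, was 1.83-fold higher (log2 0.87 ± 0.14 SE, adjusted p = 0.00637) as deposited whichever array was left out and missed the threshold after cyclic loess (adjusted p = 0.0627 in limma). Smc4, a condensin subunit, rose 2.37-fold (log2 1.24 ± 0.21 SE, adjusted p = 0.00856). Incenp, of the chromosomal passenger complex, rose 1.63-fold (log2 0.71 ± 0.15 SE, adjusted p = 0.0187). Plk4, the kinase of centriole duplication, rose 1.57-fold (log2 0.65 ± 0.13 SE, adjusted p = 0.0148). Pcm1, of the satellites around centrosomes, rose 1.63-fold (log2 0.70 ± 0.13 SE, adjusted p = 0.0114). These 4 missed the threshold after cyclic loess (0.073, 0.275, 0.245 and 0.105). They were lost without SCC replicate 2 or SCC replicate 3, Incenp also without cytoplast replicate 1 or 2. Anln, anillin, which organises the cleavage furrow, stood out in the actin cortex list with 6566, 7813 and 8127 in the SCC (7502 ± 826 SD, n = 3) and 3405, 2826, 3336 and 3898 in the cytoplast (3366 ± 439 SD, n = 4) (2.23-fold higher, log2 1.16 ± 0.14 SE, adjusted p = 0.00283), and passed under all 3 scalings whichever array was left out, while that list had 8 of 86 higher (9.3%) and 1 lower.

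Genes of the transcription machinery were called higher as well. Of 91 tested genes of RNA polymerase II, mediator and general transcription factors, 15 were higher (16.5%) and 6 under all 3 scalings (6.59%), with medians of 0.19, 0.06 and 0.03. Cdk7, the kinase of the factor TFIIH, had 296, 427 and 337 in the SCC (353 ± 67 SD, n = 3) and 192, 186, 198 and 185 in the cytoplast (191 ± 6.07 SD, n = 4). The cytoplast arrays lay close together and below every SCC array, and the rise was 1.83-fold (log2 0.87 ± 0.13 SE, adjusted p = 0.00576). Only this 1 of its 3 probe sets had a positive sign. Polr2d, a polymerase subunit, was 1.84-fold higher (log2 0.88 ± 0.14 SE, adjusted p = 0.00672) and Polr2f, another, 2.17-fold higher (log2 1.11 ± 0.21 SE, adjusted p = 0.0117). Taf2, of the factor TFIID, was at least 1.56-fold higher (log2 0.89 ± 0.12 SE, adjusted p = 0.00423). The count of 15 was 5 or 4 if SCC replicate 2 or 3 was dropped, and 9 or 8 if cytoplast replicate 1 or 2 was. It was 6 after each scaling. Polr2f was among the calls lost without either SCC replicate. Splicing factors had 16 of 94 higher (17%) but 1 under all 3 scalings (1.06%), Snrpb2, a protein of the U2 particle, at 1.8-fold higher (log2 0.85 ± 0.14 SE, adjusted p = 0.0074). Of 104 chromatin genes 15 were higher (14.4%) and 1 lower, and 2 were higher under all 3 scalings (1.92%), Atad2 and Atrx. The splicing count was 1 or 2 and the chromatin count 2 without SCC replicate 2 or 3, and they were 3 or 5 and 5 or 7 without cytoplast replicate 1 or 2. Dnmt1, the maintenance DNA methyltransferase, had 1962, 2397 and 3419 in the SCC (2593 ± 748 SD, n = 3) and 799, 742, 891 and 1836 in the cytoplast (1067 ± 516 SD, n = 4), with 3 of 3 probe sets of positive sign and 2 called. It rose 2.54-fold (log2 1.35 ± 0.34 SE, adjusted p = 0.0373), a call lost without SCC replicate 2 or 3 or cytoplast replicate 1, 2 or 3 and after cyclic loess (0.101). Sun1, the nuclear envelope protein that links chromosomes to the cytoskeleton, was 1.79-fold higher (log2 0.84 ± 0.14 SE, adjusted p = 0.00704). Sun1 passed under all 3 scalings and, as deposited, whichever array was left out. With an array left out, its call under all 3 scalings was kept in 4 of 10 cases. 1 of its 2 probe sets had the opposite sign. Kpna2, an importin, was 2.34-fold higher (log2 1.23 ± 0.24 SE, adjusted p = 0.0133), lost without SCC replicate 2 or 3 and after quantile scaling (0.054).

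The translation and energy machinery was closer to the background. 5 of 39 ribosomal protein genes (12.8%), 6 of 69 mitochondrial ribosomal protein genes (8.7%) and 7 of 68 respiratory chain and ATP synthase genes (10.3%) were higher. None of these passed under all 3 scalings. 1 of 27 aminoacyl-tRNA synthetase genes (3.7%), 1 of 40 DEAD and DEAH box helicases (2.5%) and 3 of 61 genes of carbohydrate and energy metabolism (4.92%) were higher. Of 93 genes of 3′ end processing and RNA decay 4 were higher (4.3%) and 2 lower. Eif5b, the GTPase that joins the ribosomal subunits at initiation, was an exception with 238, 286 and 379 in the SCC (301 ± 71.7 SD, n = 3) and 110.3, 88.2, 115 and 142 in the cytoplast (114 ± 22.2 SD, n = 4) (at least 2.56-fold higher, log2 1.39 ± 0.18 SE, adjusted p = 0.00373), and Cpeb4, a regulator of cytoplasmic polyadenylation in meiosis, was 1.99-fold higher (log2 1.0 ± 0.14 SE, adjusted p = 0.00471). Both passed under all 3 scalings and, as deposited, whichever array was left out. With an array left out, the call under all 3 scalings was kept in 7 of 10 cases for Eif5b and 6 for Cpeb4.

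Of the oocyte genes that passed the test, nearly all were higher as deposited. Of 73 tested genes of the egg coat, the maternal effect set and related oocyte genes, 12 were higher (16.4%) and 1 lower, 3 and 1 under all 3 scalings, and the 3 were the receptors Acvr2a, Acvr1 and Bmpr1a. The median went from 0.22 as deposited to -0.02 after cyclic loess and 0.01 after quantile scaling. As deposited, Dazl, an RNA-binding protein of germ cells, was 1.55-fold higher (log2 0.63 ± 0.14 SE, adjusted p = 0.024). Dppa3, which guards maternal methylation, was 1.37-fold higher (log2 0.45 ± 0.11 SE, adjusted p = 0.0374). Both missed the threshold after cyclic loess (0.153 and 0.458) and without SCC replicate 2 or 3 or cytoplast replicate 1 or 2, Dppa3 also without cytoplast replicate 3. Zp3, of the egg coat, had 334, 388 and 565 in the SCC (429 ± 121 SD, n = 3) and 353, 194, 221 and 494 in the cytoplast (316 ± 138 SD, n = 4) (log2 0.51 ± 0.32 SE, adjusted p = 0.429), with overlapping groups. Zfp57, a zinc finger protein that protects imprints, was lower under all 3 scalings (log2 -0.49 ± 0.12 SE, adjusted p = 0.0362) but below background on all 7 arrays, so no fold is given.

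Few genes were lower in the SCC as deposited (35), and they did not fall into 1 list. After cyclic loess 87 genes were lower and after quantile scaling 112. A call under all 3 scalings needs a call as deposited, where bright probe sets were shifted upwards. 12 falls met the naming rule. Epc2, a subunit of a histone acetyltransferase complex, had 735, 750.3 and 609.7 in the SCC (698 ± 77.1 SD, n = 3) and 1448, 1151, 1067 and 1284 in the cytoplast (1238 ± 167 SD, n = 4). No SCC array reached the lowest cytoplast array, and the fall was 1.77-fold (log2 -0.82 ± 0.17 SE, adjusted p = 0.0151). Trim27, a ubiquitin ligase, had 1384, 1511 and 1332 in the SCC (1409 ± 92.4 SD, n = 3) and 2810.0, 2134, 2279 and 2275 in the cytoplast (2375 ± 298 SD, n = 4) and was 1.68-fold lower (log2 -0.75 ± 0.17 SE, adjusted p = 0.0241). Syt11, a synaptotagmin of vesicle traffic, had 1297, 1324 and 1003 in the SCC (1208 ± 178 SD, n = 3) and 1917, 1915, 1846 and 2406 in the cytoplast (2021 ± 259 SD, n = 4), 1.68-fold lower (log2 -0.75 ± 0.17 SE, adjusted p = 0.0273). Vipas39, which with Vps33b sorts proteins through late endosomes, had 358, 274 and 238 in the SCC (290.2 ± 61.6 SD, n = 3) and 872, 539, 536 and 499.6 in the cytoplast (612 ± 175 SD, n = 4) (2.08-fold lower, log2 -1.06 ± 0.22 SE, adjusted p = 0.0172). For Epc2, Trim27, Syt11 and Vipas39 all 7 arrays were above background, and the SCC values lay below those of both other groups, the intact oocytes reading 1517, 1012 and 1451 for Epc2.

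The other falls were closer to background. Card6 was 1.46-fold lower (log2 -0.54 ± 0.12 SE, adjusted p = 0.0255). Limk1, the kinase that inactivates cofilin, was at least 1.54-fold lower (log2 -0.84 ± 0.22 SE, adjusted p = 0.0418), and Bsdc1 at least 1.37-fold lower (log2 -1.15 ± 0.27 SE, adjusted p = 0.0278). Ift122, of intraflagellar transport, was at least 1.3-fold lower (log2 -1.03 ± 0.25 SE, adjusted p = 0.0314). Snhg3, a host gene of small nucleolar RNAs, was at least 1.74-fold lower (log2 -0.97 ± 0.25 SE, adjusted p = 0.0421). For the last 4 of these, 1 SCC array was above background, and their folds are bounds with the other SCC arrays at background. In the next 3 no SCC array was above background. Rab27a, a GTPase of secretory granules, was at least 1.23-fold lower (log2 -0.86 ± 0.18 SE, adjusted p = 0.0198). Rnf122, a ubiquitin ligase, was at least 1.3-fold lower (log2 -1.02 ± 0.25 SE, adjusted p = 0.0328), and Otub2, a deubiquitinase, at least 1.28-fold (log2 -0.55 ± 0.15 SE, adjusted p = 0.0491). All 12 falls were lost without SCC replicate 2 or SCC replicate 3. Vipas39 held without each cytoplast replicate. Epc2 was lost without cytoplast replicate 1, and the other 10 without cytoplast replicate 1 or 2, Snhg3, Bsdc1 and Otub2 also without 3, and Snhg3, Limk1 and Otub2 also without 4. Rnf122, Snhg3, Otub2 and Card6 were lost without SCC replicate 1 too, Snhg3, Limk1 and Otub2 without MII oocyte replicate 4, and Otub2 without MII oocyte replicate 2. Over all probe sets, 215 were higher and 0 lower as deposited whichever array was left out, and 185 of the 215 also passed under all 3 scalings with 10 arrays. With an array left out, far fewer probe sets were higher under all 3 scalings than the 411 with 10 arrays: 2 without SCC replicate 2, 6 without SCC replicate 3 and 89 without SCC replicate 1. Without cytoplast replicate 1, 2 or 3 there were 3, 60 and 193.

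**Figure D4:**
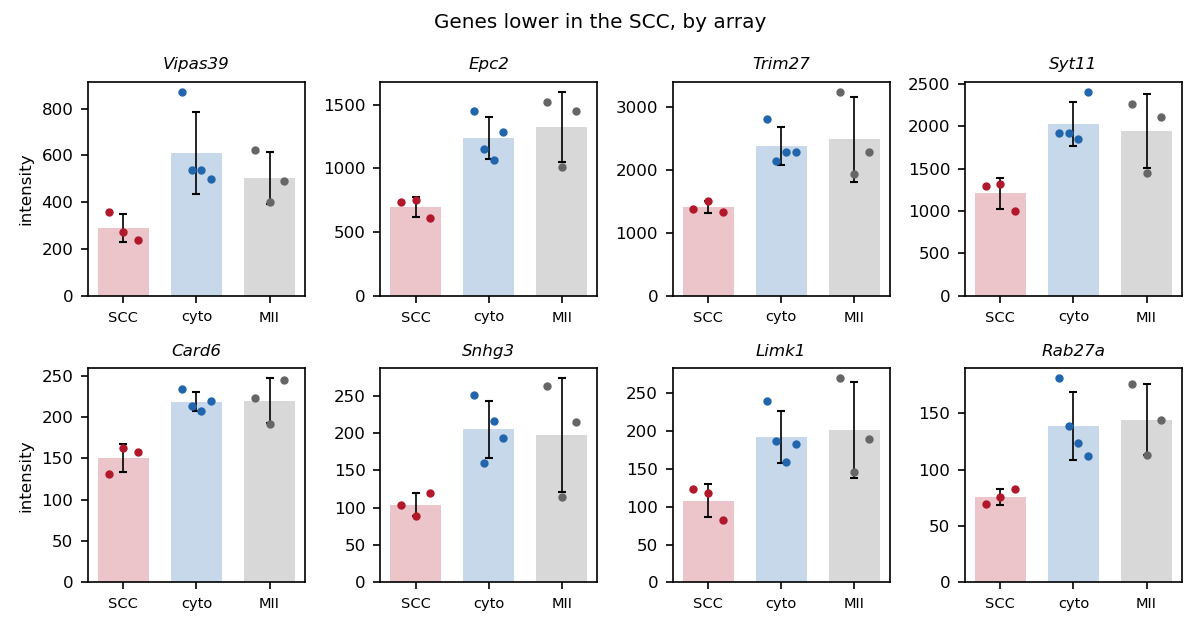
Intensity on a linear scale for 8 of the 12 genes lower in the SCC; bars are group means, error bars 1 SD, points single arrays (3 SCC, 4 cytoplast, 3 intact MII oocyte). Every SCC point lies below every cytoplast point, as for Epc2 with 750.3 at most against 1067 at least.

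Genes read by several probe sets gave a second view. The 1020 genes called higher had 861 further kept probe sets over 497 genes, of which 614 (71.3%) were also higher by sign and 138 (16%) past the threshold, 1 being called lower. Among all 7518 further probe sets 53.2% were higher by sign and 6.15% called higher. Of the 861, the other 247 had the opposite sign, so the probe sets of a called gene often disagreed. Among genes named above, the opposite sign was read by 1 of the 2 kept probe sets of Rcn2, Acvr2a and Taf2. It was read by 1 further probe set each of Etnk1, Dnajc3, Ern1, Acvr1, Bmpr1a, Bmpr2, Trim27 and Syt11. Of 1782 genes with 3 or more kept probe sets, all had a positive sign for 412 and a negative sign for 220. Ranked by the median over their probe sets, the leading rises were Leprot (1.56), Tmem33 (1.39), Dnmt1 (1.24), Siah1a (1.21), Fnip1 (1.19) and Atrx (1.18). Ywhae, Atp6ap2, Morc3, Txndc17, Sod2 and Yipf4 followed (1.14 to 0.97). Of these, Dnmt1, Fnip1, Morc3 and Sod2 had 0 probe sets called under all 3 scalings, and each of the rest had at least 1. Siah1a and Morc3 had 1 of 3 called as deposited. Txndc17, a thioredoxin-like protein, had all 3 probe sets past the threshold as deposited, 2 of them under all 3 scalings.

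Tpx2 and Exoc4, chosen after their values were seen, show how a gene can split. The brightest probe set of Tpx2, a spindle assembly factor, read a log2 difference of -0.11 ± 0.33 (SE, limma adjusted p = 0.907), with 1249, 1516 and 1684 in the SCC and 1717, 1192, 1216 and 2544 in the cytoplast. A second had 1226, 225 and 76.6 in the SCC and 803, 3376, 2154 and 262 in the cytoplast, so the groups overlapped and each held bright and dim arrays. Exoc4, of the exocyst that tethers secretory vesicles, read a log2 difference of -0.74 ± 0.34 (SE, adjusted p = 0.242) on its brightest probe set. On the next 2, it was -0.96 ± 0.21 (0.0195) and -0.84 ± 0.19 (0.0239), both lower under all 3 scalings.

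**Figure D5:**
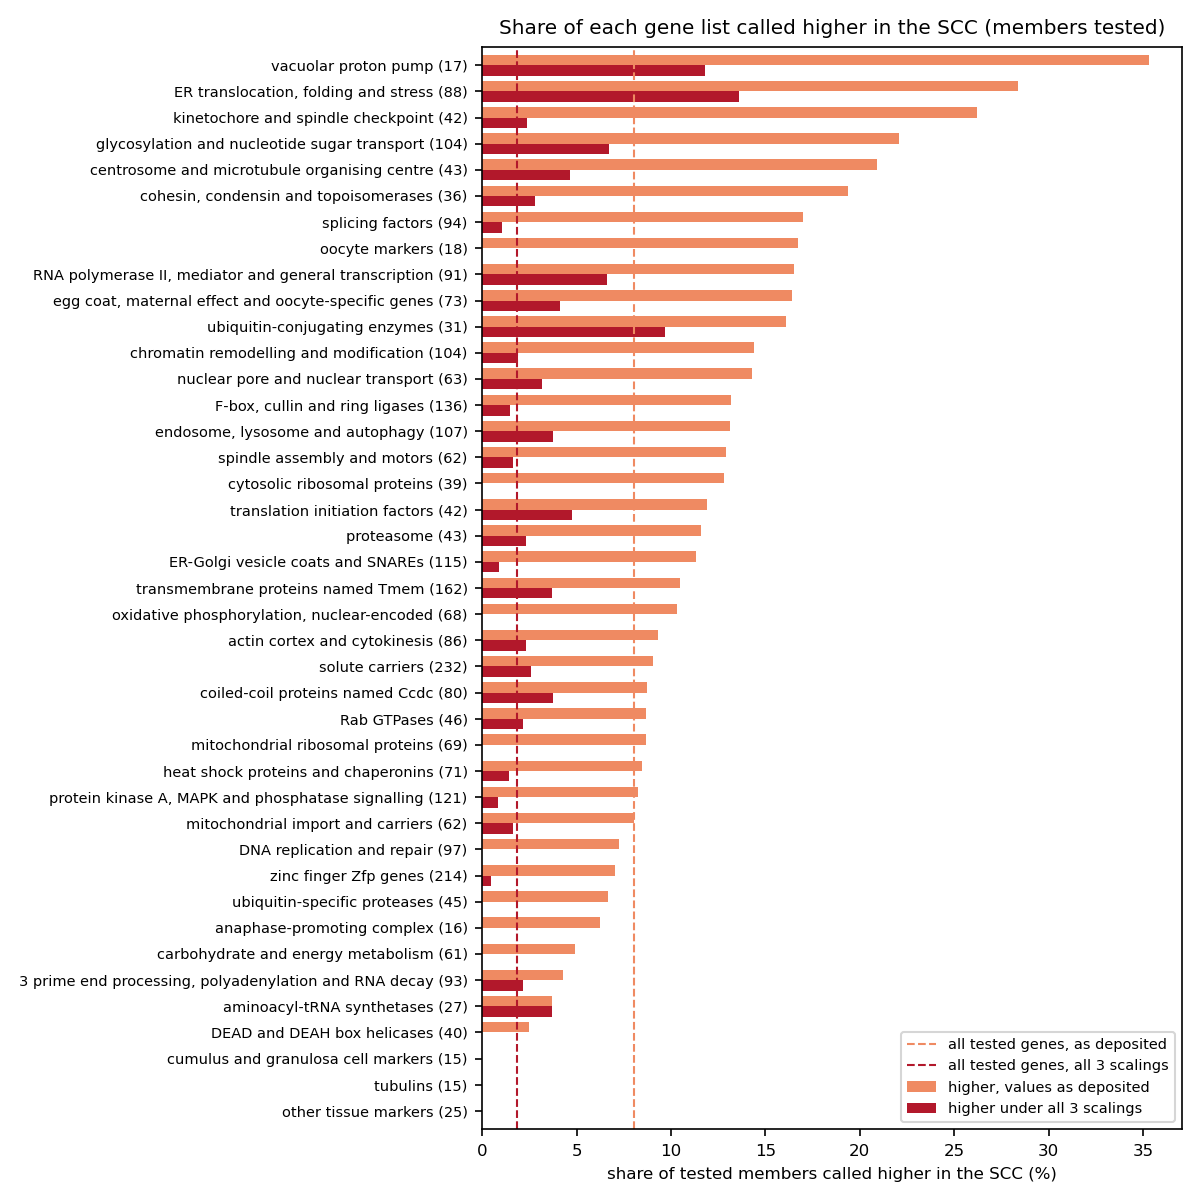
Percent of tested members called higher in the SCC for each gene list of 15 or more tested genes (number in brackets), as deposited (orange) and under all 3 scalings (red); dashed lines mark all tested genes, 8.02% and 1.84%. The vacuolar proton pump (35.3%) and the ER list (28.4%) had the highest shares as deposited, and the ER list the highest under all 3 scalings (13.6%).

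Of 32 lists with 4 or more genes higher, all 32 fell by over 1.5 times without SCC replicate 2 and without SCC replicate 3. Without cytoplast replicate 1, 29 did, and without cytoplast replicate 2, 28.

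Genes called higher had longer spans in the genome as a description. The median span of a gene in the RefSeq annotation was 23.2 kb over all tested genes with one, 30.6 kb for those higher as deposited and 35.2 kb for those higher under all 3 scalings. Bright genes are longer too, at 31.1 kb for those with a mean log2 above 8. Among these, genes higher as deposited had 31.4 kb and genes higher under all 3 scalings (97) 38.1 kb. The span of the gene is not the length of the transcript, which was not used here.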

How the data were processed

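The deposited table holds linear intensity values of 45101 probe sets on 10 arrays; RMA is named in the submitters' processing notes, with its settings not given in the sources used here. Log2 was taken without a pseudocount. The platform table gave 34945 probe sets 1 gene, 932 several and 9160 none, next to 64 controls. Genes were named only from the first kind, and 34741 of these were found in RefSeq's gene table (GRCm38.p6) through their gene IDs. Probe sets that exceeded the median of the array on 3 arrays or more went into limma 3.58.1 (R 4.3.3). The fit had group means over 10 arrays and Benjamini-Hochberg adjustment over 23737 probe sets, threshold 0.05. A gene is its kept single-gene probe set of highest mean. The fit was tested on simulated data with independent noise, without the shared shift of bright probe sets seen here. Folds are 2 to the power of the log2 difference; where the dimmer group had arrays not above background, the fold is a lower bound with those arrays set to that level.

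Named genes were the 12 largest rises and falls among genes called under all 3 scalings, with groups apart and the brighter group above background. Added to these were the 12 largest median rises among genes with 3 or more probe sets of 1 sign. In each of 44 lists, up to 4 members of smallest p were named too. The text gives a part of these, with other genes, in a list or not, picked after their values were seen. Members and lists were chosen with earlier results of these data known. The number of arrays limits the precision. Alternatives were other scalings, filters, a pseudocount of 32, a variance trend, covariates, a replicate block, 7 arrays only, and each array left out; the Actb covariate was added after seeing the data.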

Additional observations from a re-analysis of the deposited data

Results flagged for a closer look

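1 cytoplast array stood apart from the other 3 in 11 of the 104 probe sets of named genes that were checked. The measure was the ratio of its gap to the group's whole range, taken on log2 values. It was above Dixon's critical value, which chance passes in about 5% of groups. The array values printed beside some ratios are intensities. Cytoplast replicate 3 was apart for Sec11a (ratio 0.953), Edem3 (0.933), Spcs1 (0.866), Naa20 (0.844) and Dnaja1 (0.839). Cytoplast replicate 4 was apart for Ube2c (0.94), Zfp57 (0.928), Syt11 (0.857) and Tm2d1 (0.853), the last with 158 on replicate 4 and 68.4 to 77.3 on the others. Vipas39 had replicate 1 apart (0.864), at 872 against 499.6 to 539, and Cenpe replicate 2 (0.863), at 2370.0 against 2712 to 2771. The SCC, with 3 arrays, was not examined this way.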

How the results depend on the processing

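The counts of calls moved widely. Filters, the variance trend, the fit on 7 arrays and leaving out an MII oocyte array cannot change a log2 difference as deposited. Many named differences were also chosen for being large or for passing under all 3 scalings, so their sizes are not compared with the counts. After cyclic loess some rises shrank, as for Plk4 (0.65 to 0.33), and some falls grew, as for Vipas39 (-1.06 to -1.30). Of 94 named probe sets called as deposited, 48 lost the call without SCC replicate 2 and 49 without SCC replicate 3. Cyclic loess gave 503 probe sets higher and 120 lower and 290 genes higher and 87 lower, quantile normalization 419 and 153 and 242 and 112, and the medians of bright probe sets were then 0.02 and 0.00. With the level of the hybridisation controls as a covariate, 2732 and 285 probe sets and 1706 and 154 genes were called, 1021 and 202 probe sets under all 3 scalings. With the Actb covariate, chosen after seeing the data, there were 6 and 0 probe sets and 5 and 0 genes, and 0 and 0 under all 3 scalings (unadjusted limma p under 0.05 for 1551 genes higher and 193 lower), and Hsp90b1 turned to 0.78. From the 7 arrays of the compared groups alone, 185 probe sets and 102 genes were lower, and 847 were higher and 160 lower under all 3 scalings. Adding 32 left 32 probe sets and 16 genes lower, and 21 under all 3 scalings. No filter left 23 genes lower and 26 probe sets lower under all 3 scalings. Leaving out each array gave 243 to 2044 probe sets higher and 1 to 191 lower, 153 to 1296 genes higher and 0 to 106 lower, 2 to 927 probe sets higher and 0 to 161 lower under all 3 scalings, and medians of 0.22 to 0.37. Hspa5 turned to -0.08 and -0.13 and Canx to -0.20 and -0.21 after cyclic loess and quantile normalization. The cause was not tested.

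The labels do not say that equal replicate numbers share a pool, and the numbers were not used as pairs. SCC and cytoplast arrays of the same number correlated at -0.118 to 0.0105 in their deviations over 3 pairs, and cytoplast and MII oocyte arrays at -0.304, 0.614 and 0.307. With the replicate number as a block, 1834 probe sets were higher and 110 lower, 1159 genes higher and 58 lower, and 564 and 85 probe sets under all 3 scalings.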

Other observations

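Several gene groups outside the comparisons above were tested in the same way. Of 31 ubiquitin-conjugating enzymes 5 were higher in the SCC (16.1%) and 3 under all 3 scalings (9.68%). Ube2c, which feeds the anaphase-promoting complex, had 54.7, 70.4 and 108 in the SCC (77.8 ± 27.6 SD, n = 3) and 22.6, 22, 22.6 and 34.3 in the cytoplast (25.4 ± 5.97 SD, n = 4), a log2 difference of 1.58 ± 0.23 SE, adjusted p = 0.00471, with no array above background. Of 136 genes of F-box, cullin and RING ligases 18 were higher (13.2%) and 1 lower, 2 and 1 under all 3 scalings. Rnf20, the ligase of histone H2B, had 383, 392 and 538 in the SCC (438 ± 87.1 SD, n = 3) and 208, 215, 211 and 213 in the cytoplast (212 ± 3.05 SD, n = 4) and was 2.04-fold higher (log2 1.03 ± 0.13 SE, adjusted p = 0.00374). Of 63 genes of nuclear pores and transport 9 were higher (14.3%) and 1 lower, and of 42 translation initiation factors 5 (11.9%), each with 2 under all 3 scalings. Of 43 proteasome genes 5 were higher (11.6%), of 45 ubiquitin-specific proteases 3 (6.67%) and of 16 genes of the anaphase-promoting complex 1 (6.25%).

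Several further lists had shares between 7.01% and 8.75%, against 8.02% of all genes. Of 71 heat shock proteins and chaperonins 6 were higher (8.45%) and 1 lower, and Dnaja1, a cytosolic co-chaperone, was at least 2.24-fold higher (log2 1.18 ± 0.18 SE, adjusted p = 0.00584). Of 121 genes of protein kinase A, MAPK and phosphatase signalling 10 were higher (8.26%), with Ppp3r1, the regulatory subunit of calcineurin, 1.8-fold higher (log2 0.85 ± 0.13 SE, adjusted p = 0.00568). Of 62 genes of mitochondrial import 5 (8.06%), of 97 genes of DNA replication and repair 7 (7.22%), and of 80 genes named Ccdc 7 (8.75%) were higher. Ccdc88a, girdin, an actin-binding protein, was at least 1.29-fold higher (log2 1.18 ± 0.15 SE, adjusted p = 0.00373). Of 214 Zfp genes 15 were higher (7.01%) and 2 lower. Small lists had higher shares: of 14 intraflagellar transport genes 3 were higher (21.4%) and 1 lower, and of 6 ADP-ribosylation factor-like genes 1 was higher (16.7%). The only tested histone gene had no call, and of 15 cumulus and 25 other tissue genes none was called by limma, with 1 and 1 higher and 1 and 2 lower at an unadjusted p under 0.05.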
